A study of Mus musculus with 9 samples.

Results

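The genes described here are the 10 of the RANKL-OPG axis and of the osteoclast that were chosen by symbol from the 49548 genes measured: Tnfsf11, Tnfrsf11a, Tnfrsf11b, Acp5, Ctsk, Dcstamp, Ocstamp, Calcr, Atp6v0d2 and Oscar. They were read in 9 libraries of 3′ mRNA sequencing from cultured synovial fibroblasts (SFs), the mesenchymal cells of the joint lining, taken from the ankle joints of CBA C57BL/6J mice at 8 weeks of age. The 3 WT libraries came from wild-type mice, the 3 hTNFtg libraries from mice carrying a human TNF transgene, both without treatment by the labels where the methods describe vehicle, and the 3 infliximab libraries from hTNFtg SFs treated with infliximab, an antibody to human TNF, at 1 µg/mL for 48 hours. In every group CD45+ cells, the blood-derived ones, had been depleted at passage 1. Each value is a normalized count, the number of reads on a gene after the authors' normalization, taken here as a single factor for each library. The methods call the libraries of a group biological replicates, and whether a culture came from 1 mouse or several is not given in the sources used here, so that p-values measure the spread between these libraries.

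RANKL, the product of Tnfsf11, is a TNF family ligand made by stromal cells, osteoblasts and T cells. It binds RANK (Tnfrsf11a) on precursors of the macrophage lineage and, together with M-CSF, drives them to fuse into osteoclasts, the cells that resorb bone. Osteoprotegerin (Tnfrsf11b) is a secreted decoy receptor that binds RANKL and keeps it from RANK, so that the balance of the ligand and the decoy sets how much signal reaches the precursors. In arthritis, TNF is known to raise RANKL and to act on the precursors themselves, and osteoclasts at the joint margin erode the bone.

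Depth was read from the steps that low values take in each library. By this estimate hTNFtg replicate 1 held 613348 reads and the other 8 libraries 3829119 to 9015519, so that a gene of 3 reads, taken here as the floor, stood at 18.7 normalized counts in hTNFtg replicate 1 and at 1.6 to 3.31 in the others. Fibroblast markers were high throughout, summing to 36539 to 53530 per library, and the 9 T and B cell markers summed to 8 to 28. The 18 macrophage markers summed to 255, 1265 and 497 in the WT libraries (replicates 1, 2 and 3). The sums were 9160, 4469 and 8280 for hTNFtg SFs and 5349, 3076 and 6479 after infliximab. Of these markers, 15 of 18 were raised in hTNFtg versus WT SFs by the study's rule, an unadjusted P under 0.05 with a log2 fold change of at least 1, against 3.35% of all genes, Cd163 stood at 0 to 3 in every library, 0 to 4 of the 18 were at 0 in a library, and Ptprc, which encodes CD45, stood at 0 to 3 in WT, 9 to 31 in hTNFtg and 8 to 28 with infliximab. Replicate 3 of hTNFtg and of infliximab had Xist at 2 and 0, against 131 to 560 in the other 7 libraries, and Y-linked genes at 521 and 325, against 0 to 15. The liver genes, 8 in all, summed to 954 in infliximab replicate 3 and to 19 to 67 elsewhere. In bulk RNA, more cells of a type and more RNA per cell cannot be told apart.

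Levels spanned a wide range, and in 3′ sequencing the reads on a gene do not grow with its length, so that levels of different genes were set side by side on the scale of the normalized count. Over the 9 libraries Ctsk had the highest mean, 191.6, followed by Acp5 at 128.2, Tnfrsf11b at 42.9 and Tnfrsf11a at 17.8. This order did not hold in every library, since Acp5 was above Ctsk in replicate 3 of hTNFtg and of infliximab and below Tnfrsf11b in WT replicates 1 and 3, and in WT the mean of Tnfsf11 (13.3) was above that of Tnfrsf11a (6.33). Tnfsf11, Atp6v0d2, Dcstamp and Ocstamp had means of 9.89, 9.33, 8.56 and 7.22, which lay within the spread of each other. Oscar and Calcr were lowest, with means of 2.22 and 0.667. Every one of the 10 genes was above 0 in at least 1 library. Calcr was at or under the floor in WT and infliximab SFs, and Dcstamp and Oscar in WT SFs.

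**Figure D1:**
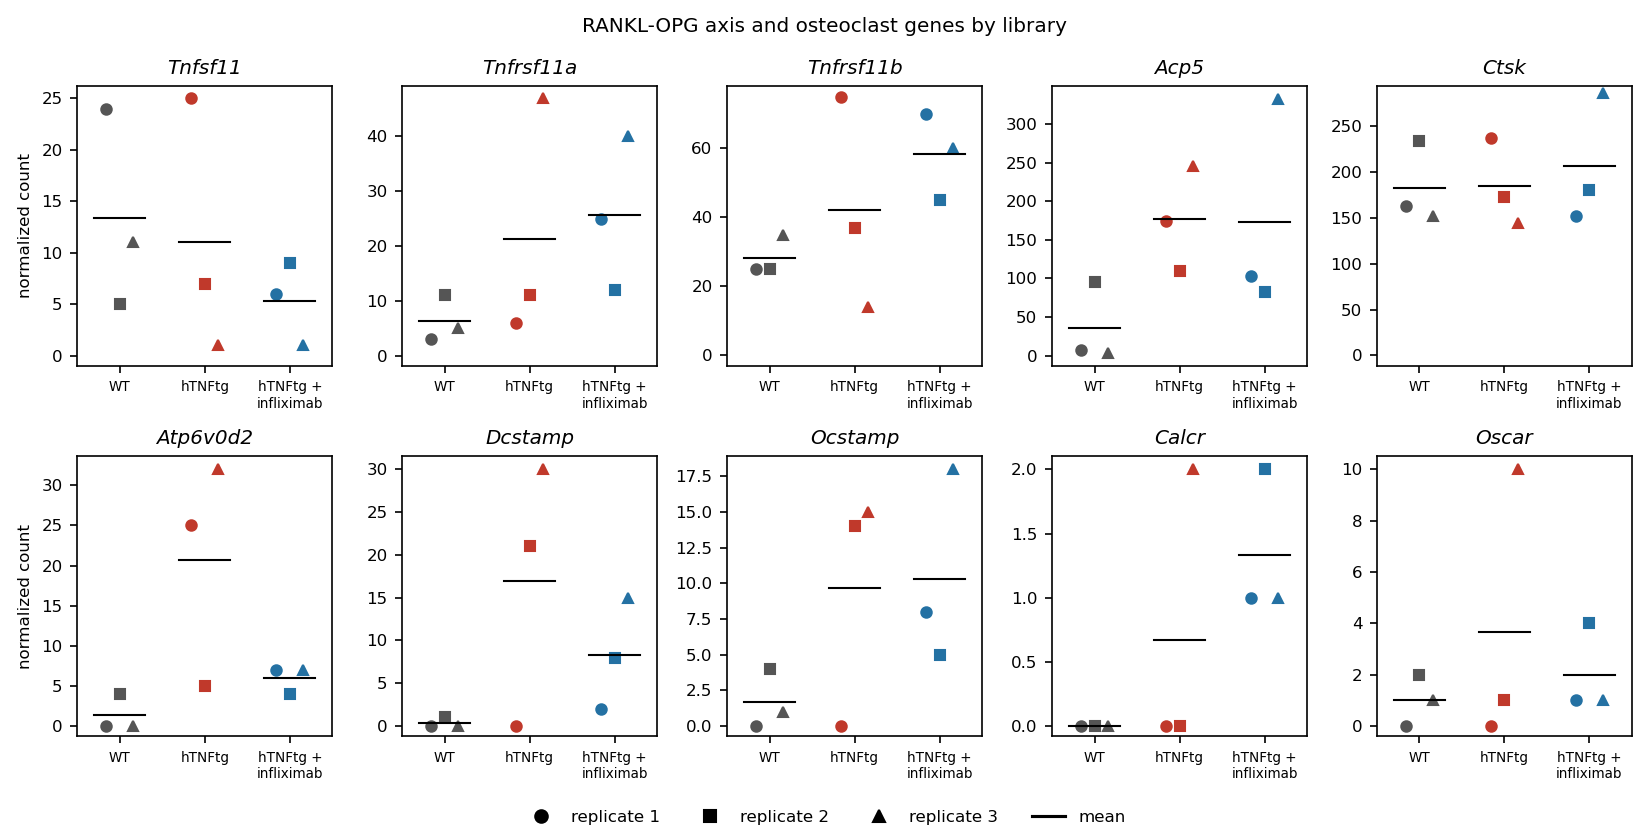
Normalized count (vertical axis, linear, a scale of its own for each gene) of the 10 genes in the 9 libraries, by group, with a symbol for each replicate number and a line at the group mean. Acp5 stands at 110 to 246 in hTNFtg SFs and at 3 to 96 in WT SFs, and Tnfsf11 is at 1 in replicate 3 of both hTNFtg groups.

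The ligand, its receptor and its decoy come first. Tnfsf11 (ENSMUSG00000022015, chr14:78277445-78308043, minus strand, mm10), which encodes RANKL, had normalized counts of 24, 5 and 11 in WT replicates 1, 2 and 3. It stood at 25, 7 and 1 in hTNFtg SFs and at 6, 9 and 1 with infliximab. These groups overlapped, and the value of 25 in the shallow hTNFtg replicate 1 rests on about 4 reads. The 2 lowest values, 1 each, were in the 2 libraries with Xist at 2 and 0. The log2 fold change of Tnfsf11, which like the others in limma is on the scale of log2(normalized count + 1), was -0.70 in hTNFtg versus WT SFs (95% interval -2.91 to 1.5, adjusted p = 0.793, limma) and turned to 0.25 without hTNFtg replicate 3. With infliximab it was -0.52 versus hTNFtg (-2.86 to 1.81, adjusted p = 0.907, limma) and -1.23 versus WT SFs (-2.94 to 0.49, adjusted p = 0.562, limma). The value versus WT was -0.71 without WT replicate 1 and -0.54 without infliximab replicate 3, and passed the study's rule as lowered with robust eBayes and in edgeR (-1.40, adjusted p = 0.349). The value versus hTNFtg was 0.38 without hTNFtg replicate 1, 0.16 without infliximab replicate 3, -1.47 without hTNFtg replicate 3 and -0.79 without replicate 3 of both groups, so that its direction depended on the libraries used. The part of the sex of the cells in the level of Tnfsf11 was not tested.

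Tnfrsf11a (ENSMUSG00000026321, chr1:105780718-105847981, plus strand), which encodes RANK, the receptor on osteoclast precursors, stood at 3, 11 and 5 in WT SFs, at 6, 11 and 47 in hTNFtg SFs and at 25, 12 and 40 with infliximab. The highest values were in the replicate 3 libraries of both hTNFtg groups, and every infliximab library was above every WT library, by 1 count at the nearest. In hTNFtg versus WT SFs the log2 fold change was 1.27 (95% interval -0.66 to 3.20, adjusted p = 0.726, limma), and 1.92 in edgeR (adjusted p = 0.111). It was 0.47 without hTNFtg replicate 3 and 1.86 without hTNFtg replicate 1. With infliximab it was 0.59 versus hTNFtg (-1.03 to 2.22, adjusted p = 0.814, limma) and 1.86 versus WT SFs (0.53 to 3.20, unadjusted p = 0.0112, adjusted p = 0.229, limma). The value versus hTNFtg was 0.0012 without hTNFtg replicate 1, 1.39 without hTNFtg replicate 3, 0.21 without infliximab replicate 3, 1.04 without infliximab replicate 2 and 0.39 without hTNFtg replicate 2. The call versus WT was lost without WT replicate 1 or infliximab replicates 1 or 3, at 1.48 to 1.81. Per 1000 counts of the macrophage markers, Tnfrsf11a amounted to 11.8, 8.70 and 10.1 in the WT libraries. The same share was 0.655, 2.46 and 5.68 for hTNFtg SFs and 4.67, 3.90 and 6.17 after infliximab. Relative to the summed markers it was thus lower in all 6 hTNFtg and infliximab libraries than in the 3 WT libraries. The 0.655 of hTNFtg replicate 1 rests on about 1 read. Lyz2 alone held 5356 of the 9160 marker counts in hTNFtg replicate 1 and 43 of the 255 in WT replicate 1. Beside Csf1r alone the order did not hold, with Tnfrsf11a at 47 beside 168 in hTNFtg replicate 3 and at 3 beside 101 in WT replicate 1.

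Tnfrsf11b (ENSMUSG00000063727, chr15:54250619-54278484, minus strand), which encodes osteoprotegerin, was at 25, 25 and 35 in WT SFs, at 75, 37 and 14 in hTNFtg SFs and at 70, 45 and 60 with infliximab. hTNFtg SFs had both the highest and the lowest value of all 9 libraries, while the 3 infliximab libraries lay above the 3 WT libraries without overlap. In hTNFtg versus WT SFs the log2 fold change was 0.28 (95% interval -1.01 to 1.57, adjusted p = 0.871, limma), and it turned to -0.28 without hTNFtg replicate 1. With infliximab it was 0.73 versus hTNFtg (-0.42 to 1.89, adjusted p = 0.803, limma) and 1.01 versus WT SFs (0.36 to 1.66, unadjusted p = 0.00633, adjusted p = 0.181, limma). The value versus hTNFtg was 0.12 without hTNFtg replicate 3, and 1.29 without hTNFtg replicate 1, where it passed the study's rule. The value versus WT passed the study's rule by a margin of 0.01 in the fold change, and did not pass it without WT replicates 1 or 2 or infliximab replicates 1 or 3, with a pseudocount of 5, with quantile normalization or with all 9 libraries in one fit.

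The log2 ratio of Tnfsf11 to Tnfrsf11b, with 1 added to each count, was below 0 in all 9 libraries. In WT replicate 1 the ligand and the decoy were nearly equal, at 24 and 25 counts from about 25 and 26 reads. In the other libraries counts of the decoy exceeded those of the ligand. It was -0.06, -2.12 and -1.58 in the WT libraries. hTNFtg SFs had ratios of -1.55, -2.25 and -2.91, and the infliximab libraries -3.34, -2.20 and -4.93. The group means were -1.25 ± 1.07 in WT, -2.23 ± 0.68 in hTNFtg and -3.49 ± 1.37 with infliximab (SD, n = 3 each). hTNFtg and WT SFs overlapped and differed by -0.98 (exact permutation test, two-sided, p = 0.3). Infliximab and hTNFtg SFs overlapped as well and differed by -1.26 (exact permutation p = 0.3). Infliximab and WT SFs did not overlap, though WT replicate 2 and infliximab replicate 2 lay close together, and they differed by -2.24 (exact permutation p = 0.1). With 3 libraries against 3, 0.1 is the smallest p this test can give, so no difference in the ratio could reach 0.05.

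**Figure D2:**
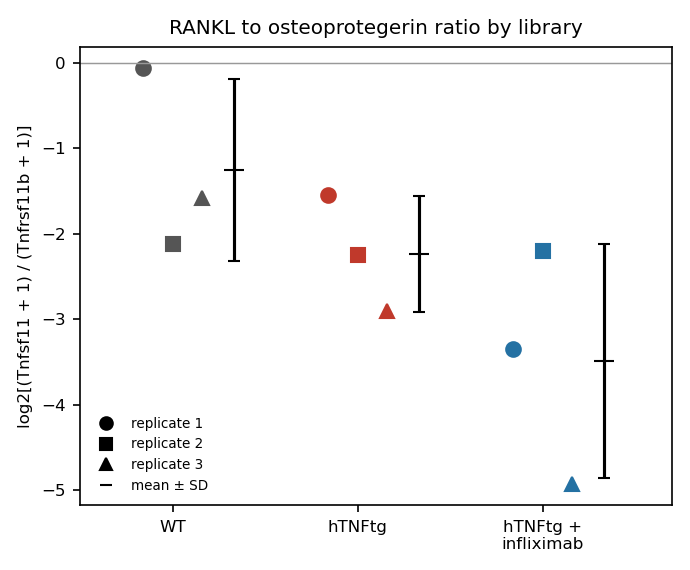
Log2 ratio of Tnfsf11 to Tnfrsf11b (vertical axis, 1 added to each normalized count) in each library, by group, with the group mean and SD (n = 3) as bars. All 9 libraries lie below 0, from -0.06 in WT replicate 1 to -4.93 in infliximab replicate 3.

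Promoter windows of the ligand and of its receptor, the 250 bases before the RefSeq start site in GRCm38.p6, which are the mm10 coordinates, show the sequence from which each is transcribed. Windows were found for 6 of the 10 genes. They were searched on both strands for NF-kB (GGNNTTNCC), AP-1 (TGANTCA), NFAT (TGGAAA), E-box (CANGTG) and PU.1 (GAGGAA) letters, and none of these overlap each other in the windows printed here. Of the 32851 promoter windows of this length, 13.5% held the NF-kB letters, 6.75% the AP-1, 18.6% the NFAT, 39.5% the E-box and 23.3% the PU.1 letters. Matches are in capitals below. The window of Tnfsf11 is chr14:78308044-78308293 (minus strand) and held no match, and that of Tnfrsf11a is chr1:105780473-105780722 (plus strand) and held the E-box letters CAGGTG beginning 233 and 77 bases before the start.
Tnfsf11: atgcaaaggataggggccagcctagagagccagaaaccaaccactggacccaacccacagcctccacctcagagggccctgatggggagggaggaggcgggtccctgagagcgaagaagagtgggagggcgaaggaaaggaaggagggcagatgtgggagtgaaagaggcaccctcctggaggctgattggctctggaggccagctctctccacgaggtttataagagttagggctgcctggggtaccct
Tnfrsf11a: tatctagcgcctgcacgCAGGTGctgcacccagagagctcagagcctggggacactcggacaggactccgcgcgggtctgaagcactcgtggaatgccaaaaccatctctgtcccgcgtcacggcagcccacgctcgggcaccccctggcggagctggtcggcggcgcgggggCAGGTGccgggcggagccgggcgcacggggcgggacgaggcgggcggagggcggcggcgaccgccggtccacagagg

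Acp5 (ENSMUSG00000001348, chr9:22126727-22135711, minus strand) encodes tartrate-resistant acid phosphatase, the enzyme by which osteoclasts are stained, which macrophages also make. Its normalized counts were 7, 96 and 3 in WT replicates 1, 2 and 3. They were 174, 110 and 246 in hTNFtg SFs and 103, 82 and 333 with infliximab. Every hTNFtg library was above every WT library, though WT replicate 2, the WT library with the highest macrophage markers, came near hTNFtg replicate 2. Acp5 rose in hTNFtg versus WT SFs, from 35.3 ± 52.6 to 176.7 ± 68.0 (SD, n = 3 each), with a log2 fold change of 3.53 ± 0.92 (standard error, 95% interval 1.5 to 5.56). The unadjusted p was 0.00272 and the adjusted p 0.176 in limma, against an adjusted p of 4.6e-06 with edgeR on the approximate reads, where the log2 fold change was 2.28. The call in limma was lost with robust eBayes and without hTNFtg replicate 1, and the fold change ranged from 2.6 to 4.90 as single libraries were left out.

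With infliximab Acp5 spread more widely than in untreated hTNFtg SFs, with replicates 1 and 2 below and replicate 3 above every untreated library. Its log2 fold change versus hTNFtg was -0.24 (95% interval -1.27 to 0.78, adjusted p = 0.897, limma), an interval that holds a fall of 2-fold but not a rise of 2-fold. It turned to 0.03 without hTNFtg replicate 3 and to 0.14 without infliximab replicate 2. Versus WT SFs it was 3.29 (1.02 to 5.55, adjusted p = 0.208, limma), although infliximab replicate 2 was below WT replicate 2. That call was lost without WT replicates 1 or 3 or infliximab replicates 1 or 3, at 2.35 to 3.51, and with no filter, array quality weights or robust eBayes. Per 1000 counts of the macrophage markers, Acp5 was 27.45, 75.9 and 6.04 in the WT libraries. It was 19.0, 24.6 and 29.7 for hTNFtg SFs and 19.3, 26.7 and 51.4 after infliximab. Relative to these markers the groups overlapped, and the part of macrophage RNA in the rise of Acp5 was not tested.

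Ctsk (ENSMUSG00000028111, chr3:95499256-95509362, plus strand) encodes cathepsin K, the protease that degrades bone collagen in osteoclasts and that fibroblasts also make. It had the highest mean of the 10 genes and, of the 4 with a mean of at least 10, varied least on the log2 scale, by 0.327 around its mean, at 163, 234 and 152 in WT SFs, 237, 173 and 145 in hTNFtg SFs and 152, 181 and 287 with infliximab. The 3 groups overlapped, with the highest value in infliximab replicate 3. Log2 fold changes were 0.01 in hTNFtg versus WT (95% interval -0.68 to 0.71), 0.14 with infliximab versus hTNFtg (-0.56 to 0.84) and 0.15 versus WT SFs (-0.46 to 0.76), with adjusted p-values of 1, 0.931 and 0.796 in limma. The infliximab versus hTNFtg value turned to -0.02 without hTNFtg replicate 3 and to -0.13 without infliximab replicate 3. Within each group Ctsk was highest in the library with the highest macrophage markers, WT replicate 2, hTNFtg replicate 1 and infliximab replicate 3. The part of macrophage RNA in the level of Ctsk was not tested.

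Atp6v0d2 (ENSMUSG00000028238, chr4:19876841-19922605, minus strand) encodes a subunit of the proton pump with which osteoclasts acidify the resorption pit, and it takes part in their fusion. It was at 0, 4 and 0 in WT SFs, 25, 5 and 32 in hTNFtg SFs and 7, 4 and 7 with infliximab. The hTNFtg values rest on about 4, 6 and 60 reads, and the lowest of them exceeded the highest WT value by 1 count. Atp6v0d2 rose in hTNFtg versus WT SFs with a log2 fold change of 3.34 (95% interval 1.12 to 5.55, unadjusted p = 0.00686, adjusted p = 0.27, limma), and edgeR gave an adjusted p of 0.00119. The value in limma was 1.87 with a pseudocount of 5, 3.99 with a pseudocount of 0.5 and 1.82 with array quality weights. All 3 infliximab libraries were far below hTNFtg replicates 1 and 3, while hTNFtg replicate 2 lay among them, and the log2 fold change versus hTNFtg was -1.34 (-3.12 to 0.45, unadjusted p = 0.131, adjusted p = 0.803, limma). edgeR gave -1.78 for that comparison with an unadjusted p of 0.0139 and an adjusted p of 0.533. Without hTNFtg replicate 2 the value in limma was -2.10 and passed the study's rule, whereas it was -0.87 without hTNFtg replicate 3, -0.98 without replicate 3 of both groups and -0.20 with array quality weights. Versus WT SFs the infliximab value was 2 (0.34 to 3.66, adjusted p = 0.304, limma), although the groups touched at 4 counts. This call was lost without WT replicates 1 or 3 or infliximab replicates 1 or 3 and in edgeR (adjusted p = 0.378). It was also lost with no filter, with array quality weights and with a pseudocount of 5, where the value was 0.84.

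Of the Acp5 promoter windows, which lie before 3 RefSeq start sites, the one at chr9:22130599-22130848 (minus strand) is printed because it held 3 of the 5 motifs. The other 2 windows held E-box letters only. The matches in the printed window were the NFAT letters TTTCCA beginning 117 bases before the start, the NF-kB letters GGGAAGTCC at 105 and the E-box letters CACATG at 90. The window of Ctsk at chr3:95498960-95499209 (plus strand) is shown beside it for the enzyme that passed the rule in none of the comparisons, and held the PU.1 letters at 233 (GAGGAA) and 58 (TTCCTC) bases before the start. A match describes the letters only.
Acp5: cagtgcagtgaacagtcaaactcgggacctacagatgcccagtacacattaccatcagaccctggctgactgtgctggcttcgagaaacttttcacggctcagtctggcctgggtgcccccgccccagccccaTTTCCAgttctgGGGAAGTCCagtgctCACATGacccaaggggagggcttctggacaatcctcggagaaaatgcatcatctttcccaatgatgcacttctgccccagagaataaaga
Ctsk: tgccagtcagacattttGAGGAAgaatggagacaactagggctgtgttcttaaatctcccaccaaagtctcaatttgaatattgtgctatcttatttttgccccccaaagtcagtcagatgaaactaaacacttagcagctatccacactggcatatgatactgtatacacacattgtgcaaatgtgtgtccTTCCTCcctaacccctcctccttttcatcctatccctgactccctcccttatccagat

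The genes of cell fusion follow. Dcstamp (ENSMUSG00000022303, chr15:39745932-39760934, plus strand) encodes a membrane protein without which osteoclast precursors do not fuse. It was at 0, 1 and 0 in WT SFs, at 0, 21 and 30 in hTNFtg SFs and at 2, 8 and 15 with infliximab. The 0 of hTNFtg replicate 1 allows a level of up to 18.7 at its depth. Over the WT libraries Dcstamp had 1 read in all and over the hTNFtg libraries 81, a ratio of rates of 90.1 with a counting interval of 15.7 to 3600 (exact, 95%), which covers counting error only. In limma the log2 fold change was 2.80 (95% interval 0.15 to 5.46, unadjusted p = 0.0403, adjusted p = 0.601), and edgeR gave an adjusted p of 1.26e-05. The call in limma was lost with a pseudocount of 0.5 or no filter, a pseudocount of 5 gave 1.64, and it was also lost when any of the libraries but hTNFtg replicate 1 was left out, with fold changes of 1.90 to 3.14 then, and it was 4.37 without hTNFtg replicate 1.

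With infliximab Dcstamp had 31 reads in all, 35.4 times the WT rate (counting interval 5.89 to 1441), and its log2 fold change versus WT SFs was 2.58 (95% interval 0.96 to 4.21, unadjusted p = 0.00544, adjusted p = 0.169, limma). This call held with each library left out in turn, at 2.04 to 3.25, and edgeR gave an adjusted p of 0.0079. Versus hTNFtg SFs the value was -0.22 (-2.86 to 2.42, adjusted p = 0.986, limma). It was -1.79 without the shallow hTNFtg replicate 1 and -1.21 in edgeR (adjusted p = 0.764), and with other single libraries left out it ranged up to 0.69. Its direction thus depended on the libraries used.

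Ocstamp (ENSMUSG00000027670, chr2:165393760-165400405, minus strand), the gene of a related fusion protein, stood at 0, 4 and 1 in WT SFs. Its hTNFtg values were 0, 14 and 15 and its infliximab values 8, 5 and 18. As for Dcstamp, hTNFtg replicate 1 was at 0 and the deeper hTNFtg libraries were above all WT libraries. The log2 fold change of Ocstamp in hTNFtg versus WT SFs was 1.53 (95% interval -1.02 to 4.08, adjusted p = 0.726, limma), and without hTNFtg replicate 1 it was 2.85 and passed the study's rule. It also passed with array quality weights (2.13) and in edgeR (2.92, unadjusted p = 0.0032, adjusted p = 0.0839). It was 0.85 without hTNFtg replicate 3, 0.89 without hTNFtg replicate 2 and 0.97 without WT replicate 1. Versus WT the infliximab value was 2.23 (0.54 to 3.92, unadjusted p = 0.0151, adjusted p = 0.254, limma), with an adjusted p of 0.0452 from edgeR, and the call was lost without WT replicates 1 or 3 or infliximab replicate 3 and with all 9 libraries in one fit. Versus hTNFtg it was 0.70 (-1.67 to 3.07, adjusted p = 0.86, limma), and it turned to -0.62 without hTNFtg replicate 1 and to -0.15 in edgeR.

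The surface receptors were near the limit of detection. Calcr (ENSMUSG00000023964, chr6:3685680-3764714, minus strand), the calcitonin receptor of the mature osteoclast, was at 0 in all WT libraries, at 0, 0 and 2 in hTNFtg and at 1, 2 and 1 with infliximab. It passed the study's rule with infliximab versus WT SFs (unadjusted p = 0.0144, adjusted p = 0.25, limma), but both groups were at or under the floor of 3 reads in every library, so no fold is given. The call of Calcr was lost with a pseudocount of 5 and in edgeR (unadjusted p = 0.0783, adjusted p = 0.464). Oscar (ENSMUSG00000054594, chr7:3609813-3616157, minus strand), a collagen receptor that co-stimulates osteoclast formation through Fcer1g, was at 0, 2 and 1 in WT SFs, against 0, 1 and 10 for hTNFtg and 1, 4 and 1 for infliximab. The single value of 10, in hTNFtg replicate 3, came from about 19 reads in the deepest library. Oscar had 3 reads over the WT libraries and 20 over the hTNFtg libraries, a ratio of rates of 7.41 (counting interval 2.20 to 38.95). In limma its log2 fold change was 0.62 in hTNFtg versus WT SFs (95% interval -1.39 to 2.64, adjusted p = 0.799) and turned to -0.36 without hTNFtg replicate 3. With infliximab versus hTNFtg it was -0.05 (-2.14 to 2.05, adjusted p = 1, limma) and turned to 0.94 without hTNFtg replicate 3.

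Counted together, 3 of the 10 genes were raised in hTNFtg versus WT SFs by the study's rule in limma, namely Acp5, Atp6v0d2 and Dcstamp, and 0 were lowered. Of all 28522 genes tested, 3.35% were raised and 3.04% lowered by this rule. None of the 10 had an adjusted p under 0.05 in limma, which 0.48% of all genes had, whereas edgeR gave 3 of the 10 an adjusted p under 0.05, against 3.23% of all genes, and 5 of the 10 an unadjusted p under 0.05, against 10.2% of all genes. In limma 3 of the 10 had an unadjusted p under 0.05, against 7.72% of all genes. In 2 of the 10, Acp5 and Atp6v0d2, every hTNFtg library was above every WT library, which held for 5.63% of all genes. The median log2 fold change over the 10 genes was 0.95, beside 0 over all genes.

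With infliximab versus hTNFtg SFs, 0 of the 10 genes passed the study's rule in limma, where 1.49% of 28540 genes were raised and 0.936% lowered. At an unadjusted p under 0.05 there were 0 of the 10 in limma, against 3.59% of all genes, and 1 in edgeR, Atp6v0d2, against 6.08% of all genes. An adjusted p under 0.05 was given to 0 of the 10 by limma, as to 0% of all genes, and to 0 by edgeR, against 0.578% of all genes. Of the 10 log2 fold changes, 5 were above and 5 below 0, with a median of 0.045, beside 0 over all genes. The intervals remain wide. For Tnfsf11, Tnfrsf11a, Dcstamp, Ocstamp and Oscar each bound lay more than 1 from 0 on the log2 scale, so that the interval holds a change of 2-fold in either direction.

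Infliximab-treated hTNFtg versus WT SFs is a comparison that shares its WT libraries with the first and its infliximab libraries with the second. By the study's rule 7 of the 10 genes were raised (Tnfrsf11a, Tnfrsf11b, Acp5, Dcstamp, Ocstamp, Calcr and Atp6v0d2) and 0 lowered, where 3.86% of 28243 genes were raised and 2.95% lowered. None had an adjusted p under 0.05 in limma (0.74% of all genes), and Tnfrsf11a, Acp5, Dcstamp and Ocstamp had one in edgeR (4.68% of all genes). At an unadjusted p under 0.05 there were 7 of the 10 in limma (11.9% of all genes) and 6 in edgeR (13.4% of all genes), 5 of them higher and Tnfsf11 lower. Every infliximab library was above every WT library for 5 of the 10, against 7.14% of all genes, and for Tnfrsf11a, Dcstamp, Ocstamp and Calcr by 1 count at the nearest. The number raised was 2 without WT replicate 1 or infliximab replicate 3, 3 without infliximab replicate 1 and 4 without WT replicate 3. The larger number of calls than in hTNFtg versus WT SFs does not show a difference between the comparisons, and the direct test of infliximab versus hTNFtg is the one given above.

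**Figure D3:**
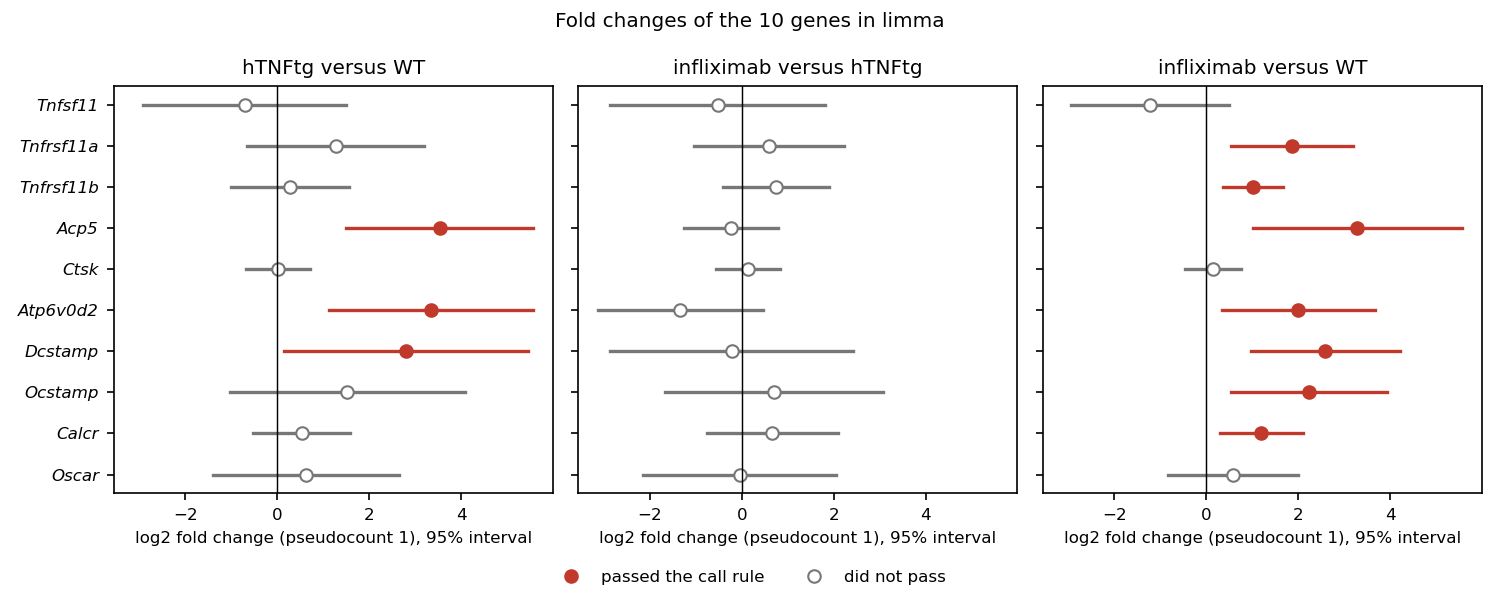
Log2 fold change in limma (horizontal axis, pseudocount 1) with its 95% interval for the 10 genes in the 3 comparisons, filled red where the study's rule was passed. In hTNFtg versus WT SFs 3 genes passed, with infliximab versus hTNFtg SFs 0 and with infliximab versus WT SFs 7.

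The macrophage markers were set beside the osteoclast genes library by library. WT replicate 2, with the highest markers in WT (1265 against 255 and 497), also had the highest WT values of Acp5, Ctsk, Tnfrsf11a, Dcstamp, Ocstamp, Atp6v0d2 and Oscar, though Dcstamp at 1 and Oscar at 2 were under the floor. Among hTNFtg libraries the order differed by gene. hTNFtg replicate 1, at 9160, had the highest markers of all 9 libraries but Tnfrsf11a of 6 and no counts of Dcstamp, Ocstamp and Oscar, at a depth where 1 read is worth 6.23 normalized counts. Without WT replicate 2 the log2 fold change of Acp5 in hTNFtg versus WT SFs was 4.90 and that of Atp6v0d2 4.11. Whether these genes were expressed in macrophages, in osteoclast precursors or in SFs was not tested.

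**Figure D4:**
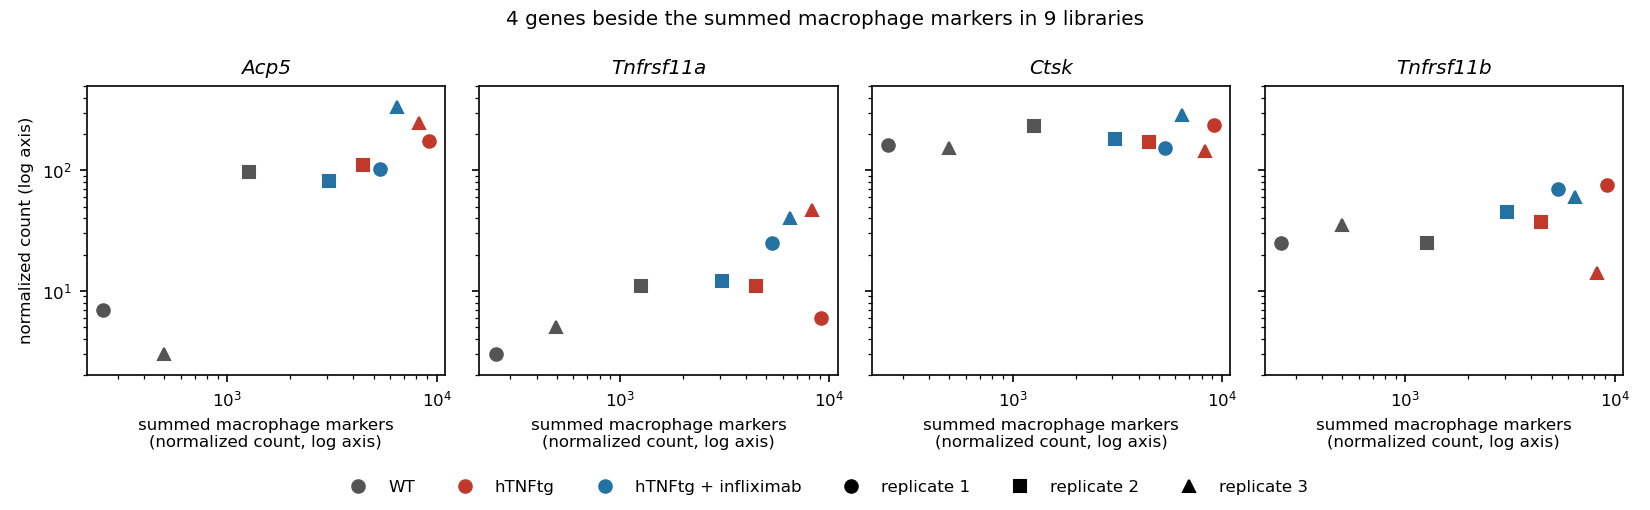
Normalized counts of Acp5, Tnfrsf11a, Ctsk and Tnfrsf11b (vertical axis, log) against the summed normalized counts of 18 macrophage markers (horizontal axis, log) in the 9 libraries, colored by group with a symbol for each replicate number. Acp5 is lowest, at 3 and 7, in the 2 libraries with the lowest markers, and Ctsk spans 145 to 287, with the highest value of each group in the library of that group with the highest markers.

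The genes whose pattern over the 9 libraries was nearest to that of a member were taken by the root mean square difference of log2(normalized count + 1), each gene centred on its own mean, among 13600 genes with a mean of at least 10. Only Acp5, Ctsk, Tnfrsf11a and Tnfrsf11b had a mean of at least 10 themselves. Nearest to Acp5 were Clec12a, Dpep2 and Snx20, at differences of 0.585, 0.619 and 0.664, where Acp5 itself varied by 2.06 around its mean. For Tnfrsf11a they were Ptpn18, Slc16a3 and Syk (0.411, 0.427 and 0.446, against 1.17), for Tnfrsf11b Card19, Spcs3 and Rnf5 (0.292, 0.297 and 0.321, against 0.726), and for Ctsk Lpcat3, U2af2 and Adprh (0.127, 0.133 and 0.15, against 0.327). Clec12a stood at 1, 34 and 2 in WT SFs, against 93, 33 and 77 for hTNFtg and 61, 27 and 65 for infliximab, so that it shared with Acp5 the high value of WT replicate 2.

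The other genes of the pathway were grouped by role. Of 28 genes of RANK signalling and its co-stimulation, 10 were raised and 1 was lowered in hTNFtg versus WT SFs, where 3.35% of all genes were raised and 3.04% lowered, and the median log2 fold change was 0.90 beside 0. The one lowered was Lgr4, which encodes another receptor of RANKL. Those that changed most were the co-stimulatory receptors and adaptors of the osteoclast and macrophage surface. Fcer1g, an adaptor with an ITAM, was at 9, 28 and 9 in WT and at 710, 109 and 127 in hTNFtg SFs (log2 fold change 3.92 ± 0.69, adjusted p = 0.0334, limma). Tyrobp, the adaptor DAP12, rose by 3.78 ± 0.78 (adjusted p = 0.0703, limma), Trem2, its receptor, by 3.23 ± 0.69 (adjusted p = 0.0766, limma) and Sirpb1a, a receptor of the SIRP family that pairs with DAP12, by 3.88 ± 0.94 (adjusted p = 0.130, limma). The shallow hTNFtg replicate 1 held the highest value of all 4, for Tyrobp 486 against 149 and 121 in the other hTNFtg libraries and for Sirpb1a 50 against 6 and 17. Fcer1g and Tyrobp are on the list of macrophage markers too. Nfatc1 and Fos are also on the list of transcription factors below and Src on that of effector genes. Fos is thus counted as raised in both of its lists, and the counts of the lists are not independent. Traf6, the adaptor that carries the RANK signal, stood at 41, 33 and 30 in WT and 31, 33 and 21 in hTNFtg SFs. Nfatc1, the master transcription factor of the osteoclast, was at 36, 52 and 72 in WT and at 106, 62 and 155 in hTNFtg SFs (log2 fold change 0.96), without passing the rule. After infliximab 0 of the 28 passed versus hTNFtg SFs, where 1.49% of all genes were raised and 0.936% lowered, and the median was -0.17.

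Among 14 transcription factors of the osteoclast lineage 4 were raised in hTNFtg versus WT SFs and 0 lowered (median 0.41), where 3.35% of all genes were raised and 3.04% lowered. They were Irf8, a brake on osteoclast formation (log2 fold change 3.16 ± 0.93, adjusted p = 0.254, limma), Fos, part of AP-1 (2.29 ± 0.97, adjusted p = 0.595, limma), Spi1, which encodes PU.1 of the myeloid lineage (2.23 ± 0.58, adjusted p = 0.168, limma) and Prdm1, a repressor of such brakes (2.05 ± 0.79, adjusted p = 0.509, limma). Genes of opposite known roles were thus among those raised. In infliximab-treated versus untreated hTNFtg SFs 0 of 14 passed the rule, where 1.49% of all genes were raised and 0.936% lowered.

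Of 24 effector genes of resorption 23 were measured above 0, 8 were raised and 0 lowered in hTNFtg versus WT SFs (median 0.35), where 3.35% of all genes were raised and 3.04% lowered. Mmp9, a gelatinase, was at 5, 554 and 15 in WT and at 143, 696 and 4533 in hTNFtg SFs, and its log2 fold change of 4.35 ± 1.48 carried an adjusted p of 0.373 in limma. Ckb, a creatine kinase of the osteoclast, rose by 2.75 ± 0.53 (adjusted p = 0.0519, limma), Slc9b2, a sodium-proton exchanger, by 2.21 ± 0.60 (adjusted p = 0.204, limma) and Snx10, a sorting nexin needed for acid secretion, by 2.13 ± 0.48 (adjusted p = 0.101, limma). With infliximab 2 of these 23 genes were lowered versus hTNFtg SFs by the rule, as were 0.936% of all genes, and no gene had an adjusted p under 0.05 in limma. Slc9b2 was at 31, 43 and 49 in hTNFtg and 19, 6 and 18 with infliximab (log2 fold change -1.57 ± 0.57, unadjusted p = 0.0158, adjusted p = 0.803, limma), and Snx10 was at 199, 102 and 159 and at 70, 41 and 76 (-1.28 ± 0.37, unadjusted p = 0.00383, adjusted p = 0.803, limma). For each, every infliximab library was below every untreated hTNFtg library, as for 3.44% of all genes, in a comparison that shares its hTNFtg libraries with the one against WT.

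Stromal cells also make other factors that act on osteoclast formation, and of 35 such genes 7 were raised and 4 lowered in hTNFtg versus WT SFs (median 0.12), where 3.35% of all genes were raised and 3.04% lowered. Ccl2, a monocyte chemoattractant, rose from 360.3 ± 171.2 to 3783 ± 1169 (log2 fold change 3.45 ± 0.41, adjusted p = 0.00598, limma) and Ptgs2, the inducible enzyme of prostaglandin synthesis, by 2.98 ± 0.40 (adjusted p = 0.0101, limma). Lif, a cytokine of the IL-6 family, rose by 3.34 ± 0.78 (adjusted p = 0.111, limma), and Sparcl1, a matrix protein, fell by 2.73 on the log2 scale (standard error 0.98, adjusted p = 0.419, limma). Csf1, which encodes M-CSF, the partner of RANKL, was at 1385, 1512 and 1205 in WT, 2915, 2088 and 1942 in hTNFtg and 1697, 1626 and 1990 with infliximab. Its log2 fold change of 0.74 in hTNFtg versus WT SFs lay under the rule's 1. Csf1 thus stood far above Tnfsf11 in counts in every library. Versus hTNFtg SFs 1 of the 35 was lowered after infliximab, as were 0.936% of all genes. It was Ccl9, a chemokine of osteoclast precursors, which went from 268, 100 and 156 to 78, 60 and 62 (log2 fold change -1.27, unadjusted p = 0.00453, adjusted p = 0.803, limma).

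**Figure D5:**
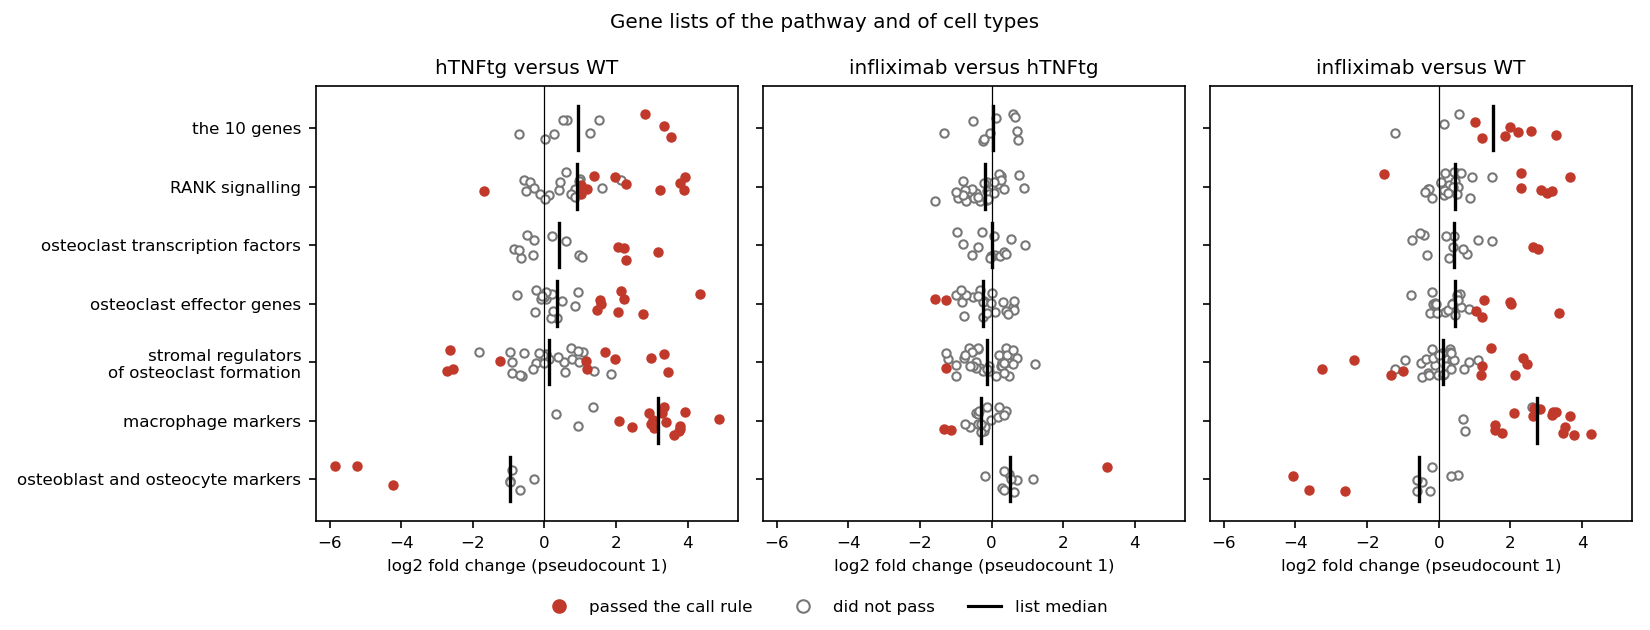
Log2 fold changes in limma (horizontal axis, pseudocount 1) of the 10 genes, 4 lists of the RANK pathway and 2 lists of cell type markers in the 3 comparisons, red where the study's rule was passed, with a bar at each list's median. The macrophage markers have the highest median, 3.17, in hTNFtg versus WT SFs, and with infliximab versus hTNFtg SFs few genes of any list passed.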

How the data were processed

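Per the labels and the study's methods, total RNA of cultured SFs was made into QuantSeq 3′ libraries, sequenced on an Ion Proton, and mapped to mm10 with TopHat2 and Bowtie2 (versions not given in the sources used here). Counts per gene were normalized by a method not given in the sources used here, and the study's own test was DESeq. The values used are a score deposited by the authors, whole numbers taken here as counts scaled by 1 factor per library. For hTNFtg replicate 1 the signal that the authors deposited falls on whole multiples of what 1 read is worth, 6.23. The 24 per-sample columns of log2 and rpgm-normalized values were not used, nor were columns of fold changes and p-values, which hold the authors' own comparisons.

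The members and lists were chosen with earlier results of these data known. limma 3.58.1 (lmFit, eBayes with trend) in R 4.3.3 was run on log2(normalized count + 1) over the 6 libraries compared, on genes above 0 in at least 1 of them. The study's rule is an unadjusted P under 0.05 together with a change of 1 or more on the log2 scale, and adjusted p-values are Benjamini-Hochberg over all genes tested. Reads were approximated by dividing by the worth of 1 read and rounding. Multiplying back gave 99.3% of the values in hTNFtg replicate 1, genes at 0 included. In the other libraries 1 read is worth 0.534 to 1.1 counts. There rounding returns nearly every value whatever that worth is, so this check could not test the estimate. edgeR 4.0.16 (quasi-likelihood) was run on the approximate reads as an alternative. Other alternatives were pseudocounts of 5 and 0.5, a minimum mean of 10, no filter, 2 other normalizations, array weights, robust eBayes, a replicate block, all 9 libraries in one fit, and each library left out. The fits were tested on simulated data. The named genes of a pathway list are the up to 4 with the largest fold change in hTNFtg versus WT SFs among those past the rule with a mean of at least 10 in either group. For each member with a mean of at least 10, the 3 nearest genes were also named. Other genes named were chosen after their values were seen.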

Additional observations from a re-analysis of the deposited data

How the results depend on the processing

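The number of the 10 genes called in hTNFtg versus WT SFs was 3, and it was 1 with a replicate block (the calls of Atp6v0d2 and Dcstamp were lost), 5 with edgeR and 0 at an adjusted p under 0.05. It ranged from 2 to 3 as each library was left out. With infliximab versus hTNFtg SFs the 0 called became 1 with array quality weights and 1 with edgeR, and 0 to 1 with a library left out (Tnfrsf11b without hTNFtg replicate 1, Atp6v0d2 without hTNFtg replicate 2). With infliximab versus WT SFs the 7 called became 4 with a pseudocount of 5, 3 with a minimum mean of 10, 4 with a replicate block (the calls of Tnfrsf11a, Acp5 and Atp6v0d2 were lost), 0 at an adjusted p under 0.05, and 2 to 7 with a library left out. Over all genes, the 1823 called in hTNFtg versus WT SFs became 1183 with a minimum mean of 10, 3540 with array quality weights, 137 at an adjusted p under 0.05 and 1382 to 2407 with a library left out. The 693 called with infliximab versus hTNFtg SFs became 351 with a pseudocount of 5, 314 with a minimum mean of 10, 390 with no filter, 2144 with array quality weights, 1050 with all 9 libraries in one fit, 1228 with edgeR, 0 at an adjusted p under 0.05 (1026 had an unadjusted p under 0.05) and 418 to 1411 with a library left out. The 1923 called with infliximab versus WT SFs became 1058 with a pseudocount of 5, 1056 with a minimum mean of 10, 209 at an adjusted p under 0.05 and 1681 to 2516 with a library left out. A minimum mean of 10 leaves fewer genes to test, but the cause of these shifts was not tested.

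Some fold changes of genes that had not passed the rule changed sign. Ctsk in hTNFtg versus WT SFs was -0.15 with array quality weights, -0.0667 with edgeR and -0.18 to 0.20 with a library left out, and with infliximab versus WT SFs -0.0355 with array quality weights and -0.11 to 0.34. Left out libraries also took hTNFtg versus WT SFs to -0.28 to 0.89 for Tnfrsf11b, -1.60 to 0.25 for Tnfsf11 and -0.36 to 1.37 for Oscar. With infliximab versus hTNFtg SFs they gave -1.47 to 0.38 for Tnfsf11, -0.62 to 1.38 for Ocstamp, -1.79 to 0.69 for Dcstamp, -0.86 to 0.14 for Acp5, -0.13 to 0.33 for Ctsk and -0.79 to 0.94 for Oscar. In that comparison a pseudocount of 0.5 gave 0.0022 for Dcstamp and 0.12 for Oscar, array quality weights gave 0.0684 for Acp5, -0.47 for Ocstamp and 0.41 for Oscar, and edgeR gave 0.0175 for Acp5 and -0.15 for Ocstamp. With replicate 3 of both groups left out, chosen after seeing the data since these libraries had Xist at 2 and 0, Ctsk was -0.29, Dcstamp 0.15 and Oscar 1.16. Of 506 values of single genes under an alternative, 418 kept their direction and their side of the rule, 45 lost the call, 10 gained it and 33 changed sign.

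Pairing by replicate number was checked by the correlation of deviations from the group means over 13600 genes. Between same-numbered libraries it was 0.29, -0.14 and 0.35 for hTNFtg versus WT. It was 0.07, 0.20 and 0.27 for infliximab versus hTNFtg, and 0.10, -0.15 and 0.01 for infliximab versus WT. Between differently numbered libraries it ran from -0.49 to 0.24, -0.26 to 0.13 and -0.17 to 0.22 in the same order. For infliximab versus hTNFtg, where every same-numbered value was above 0, the check does not settle whether the libraries were paired. The main fits treated all libraries as unpaired. A replicate block moved the genes called to 1659, 605 and 1698. The ratio of Tnfsf11 to Tnfrsf11b kept its direction under every alternative run, at -1.41 to -0.38, -1.90 to -0.54 and -2.88 to -1.52 in the 3 comparisons with a library left out. In hTNFtg replicate 1 Dcstamp, Ocstamp, Calcr and Oscar had 0 reads, Tnfrsf11a 1, and Tnfsf11 and Atp6v0d2 4 each.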

Other observations

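Some markers of the bone-forming cell were lower in hTNFtg SFs. Of 8 osteoblast and osteocyte markers measured above 0 in hTNFtg versus WT SFs, 3 were lowered by the study's rule and 0 raised, where 3.04% of all genes were lowered, and Bglap, Bglap2, Phex, Runx2 and Col1a1 did not pass. The adjusted p in limma was 0.0641 for Alpl, 0.00948 for Sp7 and 0.0672 for Ibsp. Alpl, the alkaline phosphatase of mineralizing cells, was at 983, 441 and 710 in WT SFs and at 0, 89 and 17 in hTNFtg SFs. Sp7, the osteoblast transcription factor osterix, stood at 65, 80 and 90 against 0, 2 and 2, and Ibsp, a bone matrix protein, at 76, 44 and 26 against 6, 1 and 0. With infliximab Alpl was at 129, 206 and 48, with replicates 1 and 2 above every untreated hTNFtg library and replicate 3 below hTNFtg replicate 2. Versus hTNFtg SFs Alpl passed the rule as raised (log2 fold change 3.22, unadjusted p = 0.0162, adjusted p = 0.803, limma). Of the 10 markers measured above 0 in that comparison 1 was raised and 0 lowered, where 1.49% of all genes were raised. The 0 of hTNFtg replicate 1 allows a level of up to 18.7 at its depth. With infliximab Sp7 and Ibsp stood at 1 to 9 and 1 to 4. Pth1r, the parathyroid hormone receptor of osteoblasts, was at 574, 694 and 1190 in WT, 31, 198 and 303 in hTNFtg and 163, 204 and 101 with infliximab. Wnt16, a Wnt ligand that restrains osteoclast formation, was at 123, 100 and 65, at 25, 19 and 7, and at 49, 37 and 26. The last 2 genes, from the list of stromal regulators, were chosen after their values were seen.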
